A study of Mus musculus with 62 samples.

Results

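White adipose tissue taken 4 weeks after mice received melanoma cells that cause cachexia (CAC, 5 libraries) was compared with tissue taken 4 weeks after injection of melanoma cells that do not (NCAC, 5 libraries). These 10 libraries are among 62 in the study, and they were chosen by the arm and week in their sample descriptions and by nothing measured. Mock-injected fat of the same week (5 libraries) and the CAC and NCAC libraries of 2, 6 and 8 weeks (5 of each at 2 and 6 weeks, 7 CAC and 5 NCAC at 8 weeks) are used below as neighbours of the comparison. All groups are described in the series record as 2-month-old female NCI Ath/nude mice. The sample tags instead give the strain C57BL6/J, and the sources used here do not settle which holds. CAC and NCAC mice both received melanoma cells, and the arms differ in which cells those were. The labels name neither the melanoma lines nor the fat depot, and give no body weight or fat mass. They call the replicates biological without naming the animals, so p-values measure the spread between these samples.

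White fat stores triglyceride in large adipocytes and releases it by lipolysis when energy is needed. In cachexia, the wasting of fat and muscle that accompanies some cancers, fat shrinks, and in rodent models it can also gain features of thermogenic (brown-like) adipocytes, in which uncoupling protein lets mitochondria burn fuel as heat. Cytokines of the interleukin-6 (IL-6) family act through the receptor subunit gp130 and the transcription factor STAT3, and they raise acute phase proteins such as haptoglobin, mainly in liver but also in fat.

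Expression was measured by RNA sequencing and is given as TPM, in which read density per transcript length is set to sum to 1000000 in each library, so the number of reads is unknown and only the spread between libraries shows the error. The 10 libraries hold 12127 to 13250 genes at 1 TPM or more in CAC fat and 12386 to 13768 in NCAC fat. Mitochondrially encoded genes took 34.6 ± 4.37% of TPM in CAC fat and 29.6 ± 5.72% in NCAC fat (SD, n = 5 each, two-sided exact permutation p = 0.159, with 0.00794 the smallest p the design allows). Markers of other tissues stood apart in a few libraries. The summed urothelial markers (5 of 5 genes tested) reached 329 TPM in CAC replicate 2 and 154 TPM in CAC replicate 5, and 145 TPM in NCAC replicate 3, while the other libraries held 0.706 to 2.20 TPM in CAC fat and 0.406 to 10.7 TPM in NCAC fat. The 10 skeletal muscle markers summed to 3606 TPM in CAC replicate 2, with 2.19 to 55.9 TPM in the other CAC libraries. In NCAC fat they summed to 571 TPM in replicate 1 and to 12.5 to 127 TPM in the others. Adipocyte identity was plain in all 10 libraries, with Adipoq (adiponectin) at 2649 to 4266 TPM in CAC fat, against 3593 to 6978 TPM in NCAC fat. The 6 melanocyte and melanoma markers summed to 4.02 to 4.78 TPM in CAC fat and to 2.87 to 5.73 TPM in NCAC fat. In mock fat of the same week, without melanoma cells, they summed to 2.46 to 7.78 TPM. Of the pigment enzymes, Dct was at 1.01 to 3.46 TPM in CAC fat and 0.708 to 2.59 TPM in NCAC fat, while Tyr was at most 0.00757 TPM and Tyrp1 at most 0.0225 TPM in CAC fat and both were listed at 0 in all NCAC libraries. The melanosome genes Pmel and Mlana reached 0.811 and 1.21 TPM in CAC fat, against 1.82 and 1.90 TPM in NCAC fat. The T cell markers summed to 1.45 to 7.05 TPM in CAC fat and to 2.63 to 9.66 TPM in NCAC fat, and the T cell receptor subunit Cd3e was at most 1.11 TPM in CAC fat and 0.174 TPM in NCAC fat.

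No gene passed the test at 4 weeks. Of 14576 genes, 0 were called (0% of those tested, limma on log2(TPM + 1), Benjamini-Hochberg adjusted p under 0.05), and the lowest adjusted p was 0.981. At an unadjusted p under 0.05 stood 648 genes, of which 152 had higher values in CAC fat (1.04%) and 496 lower values (3.4%). Together these shares stayed under the 5% of genes that this limit would pass if no gene differed. The median log2 difference over all genes, CAC minus NCAC, was -0.07, and 36.8% of genes had a positive difference. The 5 CAC libraries lay wholly above the 5 NCAC libraries for 25 genes (0.172%) and wholly below them for 64 (0.439%). Differences below are therefore given as values, with the limma standard error (SE) and the unadjusted p, and none of them at 4 weeks was called. Per-library values run from replicate 1 to replicate 5 in each arm.

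Genes of thermogenic adipocytes gave the highest median of the 41 gene lists. All 14 tested members had a positive difference at 4 weeks, with a median log2 difference of 1.40 and 9 at an unadjusted p under 0.05, against 36.8% positive and 1.04% over all genes. The lists were chosen with earlier results of these data known, and members of a list read in the same libraries are not independent. Counts set beside the shares over all genes, here and below, are therefore descriptions and not tests of a list. In bulk tissue, fewer cells of a type and less RNA per cell cannot be told apart. Ucp1, the uncoupling protein itself (chr8:83290352-83298452, plus strand), was at 25.5, 772, 434, 392 and 391 TPM in CAC fat, against 161, 2.29, 11.5, 0.211 and 6.86 TPM in NCAC fat. Only CAC replicate 1 lay below an NCAC library, and NCAC replicate 1 stood far above the other NCAC libraries. The log2 difference was 4.87 ± 1.26 (SE, unadjusted p = 0.00279). Cidea, a lipid droplet protein that marks thermogenic fat, was at 69.5, 801, 190.3, 247 and 185 TPM in CAC fat, against 62.8, 4.66, 29.7, 5.03 and 20.5 TPM in NCAC fat. The arms did not overlap for Cidea, although CAC replicate 1 and NCAC replicate 1 nearly met, and the difference was 3.68 ± 0.77 (unadjusted p = 0.000582).

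Otop1, a proton channel of brown fat (chr5:38275972-38304217, plus strand), had the lowest unadjusted p of the genes named by rule. It was at 2.23, 11.5, 17.2, 10.2 and 14.1 TPM in CAC fat, against 2.57, 0.286, 0.906, 0.0841 and 0.526 TPM in NCAC fat. The 4 other CAC libraries lay above every NCAC library, CAC replicate 1 lay inside the NCAC range, and the difference was 2.61 ± 0.47 (unadjusted p = 0.000152). Without CAC replicate 1, Otop1 was called (log2 difference 3.04, limma adjusted p = 0.0358). Cpt1b, which brings long-chain fatty acids into mitochondria (chr15:89416405-89425863, minus strand), was at 10.4, 156, 57.0, 44.7 and 38.8 TPM in CAC fat, against 16.9, 2.83, 5.20, 2.06 and 4.11 TPM in NCAC fat. CAC replicate 1 was again below NCAC replicate 1 and the other CAC libraries above every NCAC library, with a difference of 2.96 ± 0.65 (unadjusted p = 0.00091). Skeletal muscle also expresses Cpt1b, and without CAC replicate 2, the library highest in muscle markers, the difference was 2.51. NCAC replicate 1 was the library of its arm highest in muscle markers. Acot11, an acyl-CoA thioesterase of brown fat, ranged over 2.30 to 15.0 TPM in CAC fat, against 0.417 to 4.60 TPM in NCAC fat (difference 1.83 ± 0.50). Gk, glycerol kinase, which lets adipocytes reuse glycerol, ranged over 3.03 to 21.4 TPM in CAC fat, against 1.95 to 5.04 TPM in NCAC fat (difference 1.53 ± 0.41). In both, CAC replicate 1 lay below NCAC replicate 1 and the other CAC libraries lay above every NCAC library.

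Among the remaining thermogenic genes, the cytochrome oxidase subunits Cox7a1 and Cox8b differed by 2.08 and 1.24, the fatty acid transporter Slc27a2 by 2.41, the potassium channel Kcnk3 by 1.16 and the fatty acid receptor Ppara by 1.2029 on the log2 scale, each at an unadjusted p under 0.05. The inducers of the programme had smaller or more scattered differences, with 1.17 for the coactivator Ppargc1a (unadjusted p = 0.0839), 0.58 for the regulator Prdm16 (unadjusted p = 0.0575) and 1.47 for the thyroid hormone deiodinase Dio2 (unadjusted p = 0.128). The mean level of the list, in log2(TPM + 1), was 3.45, 6.26, 4.72, 5.09 and 4.83 in CAC fat, against 4.07, 2.15, 3.18, 2.34 and 2.92 in NCAC fat. In mock fat it was 2.01, 4.03, 4.60, 4.69 and 5.69. Mock fat thus spanned nearly the whole range of both injected arms, and CAC replicate 1 and NCAC replicate 1 were the pair that overlapped. Without the 3 libraries over 100 TPM in urothelial markers, 13 of the 14 members were positive, with a median of 1.10, and without CAC replicate 2 alone all 14 were, with a median of 1.22. The part of urothelial or muscle tissue in the thermogenic values was not tested.

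**Figure D1:**
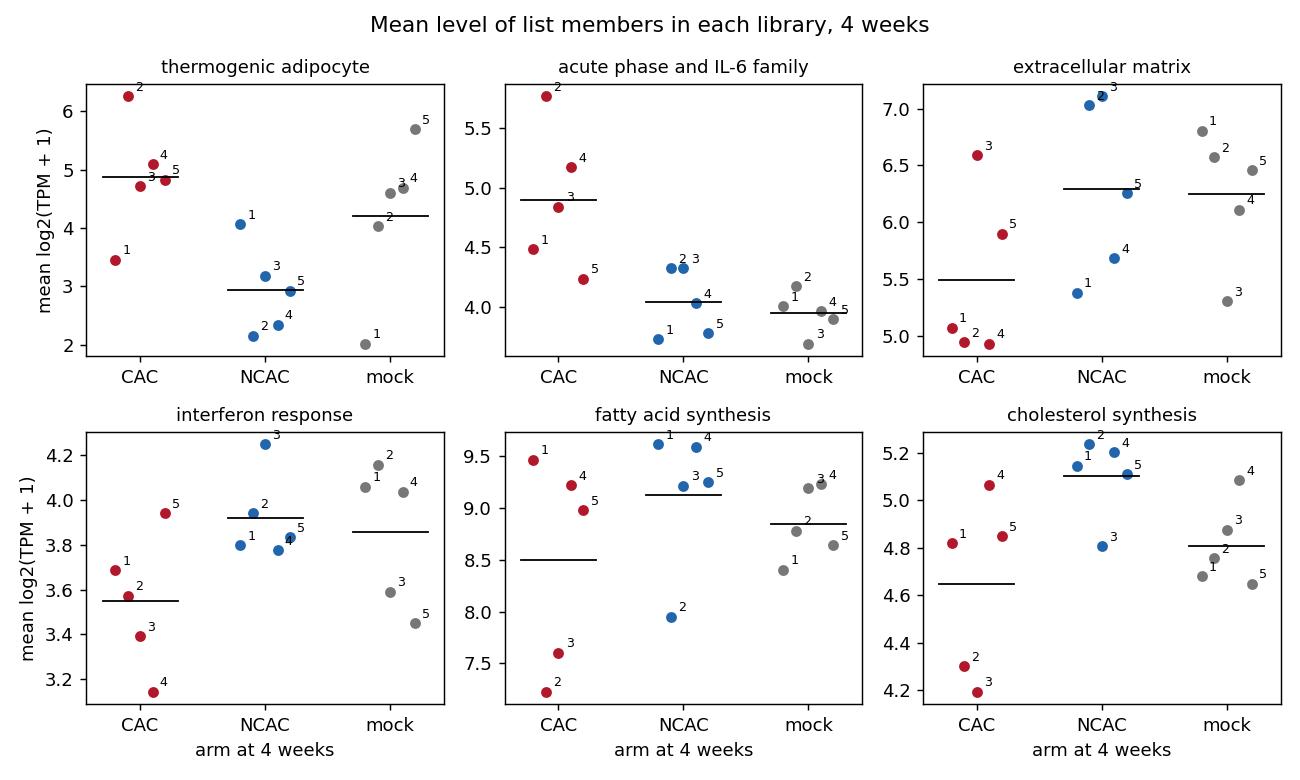
Mean log2(TPM + 1) over the tested members of 6 gene lists in each library at 4 weeks, with CAC in red, NCAC in blue and mock in grey; the digit beside a point is its replicate number and the line is the mean of 5. In the thermogenic panel CAC replicate 1 (3.45) lies below NCAC replicate 1 (4.07), and mock libraries run from 2.01 to 5.69.

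Fatty acid oxidation, the pathway that supplies thermogenic mitochondria, had 15 of 17 members with a positive difference and a median of 0.37. Of these members 6 had an unadjusted p under 0.05 (1.04% over all genes). The arms did not overlap for Etfdh, which passes electrons from fatty acid oxidation to ubiquinone, at 60.8, 84.0, 64.8, 79.9 and 66.3 TPM in CAC fat, against 58.1, 42.2, 48.1, 51.2 and 54.1 TPM in NCAC fat (difference 0.48 ± 0.13, unadjusted p = 0.00381). Nor did they for Acadvl, the first enzyme for very long chains, with a difference of 0.62 (unadjusted p = 0.00832). Slc25a20, the carnitine carrier, ranged over 110.0 to 186 TPM in CAC fat, against 77.4 to 112 TPM in NCAC fat (difference 0.58 ± 0.17), and the arms overlapped. Cpt1a, the liver form of the transferase that Cpt1b encodes in muscle and brown fat, differed by -0.20. Nuclear genes of oxidative phosphorylation had small differences, with a median of 0.12 over 23 members, 19 positive and 0 at an unadjusted p under 0.05 (3 once mitochondrially encoded genes were left out of the total).

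The second group with higher values in CAC fat was that of acute phase proteins and IL-6 family signalling. Of 19 members 16 had a positive difference, 9 at an unadjusted p under 0.05, with a median of 0.90 (0.57 without CAC replicate 2). Over all genes 36.8% were positive, and 1.04% had higher values at that p. Itih4, an inter-alpha-trypsin inhibitor heavy chain secreted in the acute phase (chr14:30886476-30902353, plus strand), was at 57.6, 329, 11.8, 203 and 27.2 TPM in CAC fat, against 5.86, 2.62, 5.67, 3.95 and 3.27 TPM in NCAC fat. Every CAC library lay above every NCAC library, with CAC replicates 2 and 4 highest, and mock fat held 1.29 to 4.61 TPM. The log2 difference was 3.73 ± 0.77 (unadjusted p = 0.000569), and with all 62 libraries in 1 fit Itih4 was the single called gene (limma adjusted p = 0.00196). Hp, haptoglobin, which binds free haemoglobin (chr8:109575128-109579172, minus strand), was at 636, 12474, 5117, 3697 and 1261 TPM in CAC fat, against 392, 2138, 400.1, 769 and 611 TPM in NCAC fat. CAC replicates 1 and 5 lay below NCAC replicate 2, the highest of its arm, and the difference was 2.04 ± 0.77 (unadjusted p = 0.0222).

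Within the signalling part of that list, Socs3, the feedback inhibitor that STAT3 induces (chr11:117966079-117970047, minus strand), was at 8.55, 30.0, 26.2, 17.4 and 10.7 TPM in CAC fat, against 5.45, 7.58, 10.6, 7.67 and 5.80 TPM in NCAC fat. CAC replicate 1 alone lay below an NCAC library, and the difference was 1.10 ± 0.32 (unadjusted p = 0.00566). Stat3 differed by 0.91 (unadjusted p = 0.0109) and the oncostatin M receptor Osmr by 0.95 (unadjusted p = 0.0168), whereas the IL-6 receptor Il6ra differed by 0.06 and the shared subunit Il6st (gp130) by 0.32 (unadjusted p = 0.863 and 0.201). Among secreted members, the protease inhibitors Serpina3n and Serpina3m differed by 1.43 and 1.60, although these belong to a family of near-identical copies and are uncertain individually. Lrg1, a leucine-rich glycoprotein of the acute phase, differed by 1.89 (unadjusted p = 0.0635). The 2 members with the most negative differences were the orosomucoid Orm1 at -0.73 and serum amyloid Saa3 at -0.49, and without the 3 libraries high in urothelial markers the Saa3 difference had the other sign (0.20). Saa3 ranged over 13.5 to 57.7 TPM in CAC fat, against 13.1 to 146 TPM in NCAC fat.

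Lcn2, lipocalin-2, an iron-siderophore binding protein, was at 6.14, 60.9, 7.07, 21.8 and 3.16 TPM in CAC fat, against 1.04, 1.198, 140.1, 2.78 and 1.74 TPM in NCAC fat. NCAC replicate 3, one of the libraries high in urothelial markers, held the highest value of the 10, and the difference was 1.14 ± 1.17 (unadjusted p = 0.353). In the 7 libraries low in those markers, the 3 CAC values lay above the 4 NCAC values (difference 2.07, not called). The part of the urothelial signal in the Lcn2 values was not tested.

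STAT factors bind the palindrome TTCNNNGAA. It was searched on both strands of the RefSeq promoters (250 bases before to 50 after the gene start, build GRCm38.p6), where 8.30% of 32851 promoters hold it. Of the 16 acute phase list members with a promoter in that table Itih4 and Socs3 held it (12.5%, against 9.55% of 27025 genes with a promoter), and of the 8 of the 12 leading higher genes with a promoter Itih4 and Csf2rb2 did (25.0%). It was as well in 2 of 11 leading lower genes (Tgtp1 and Tgtp2, 18.2%), in 4 of 13 interferon list members (30.8%) and in 0 of 10 thermogenic ones. The 3 promoters are shown because these genes had non-overlapping or nearly separate arms and rose in CAC fat at 6 and 8 weeks. They lie at chr14:30886226-30886525, plus strand, at chr11:117969317-117969616, minus strand and at chr15:78305672-78305971, minus strand, and capitals mark the palindrome, which starts 51, 154 and 15 bases before the RefSeq start of each gene. For Socs3 that start, and the whole window, lies inside the longer GENCODE span given above.
Itih4: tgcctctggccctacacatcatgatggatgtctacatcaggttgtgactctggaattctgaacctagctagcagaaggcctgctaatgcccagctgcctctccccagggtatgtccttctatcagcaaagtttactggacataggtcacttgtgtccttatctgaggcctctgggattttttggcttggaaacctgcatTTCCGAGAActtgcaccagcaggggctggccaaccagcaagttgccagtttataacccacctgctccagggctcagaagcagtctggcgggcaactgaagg
Socs3: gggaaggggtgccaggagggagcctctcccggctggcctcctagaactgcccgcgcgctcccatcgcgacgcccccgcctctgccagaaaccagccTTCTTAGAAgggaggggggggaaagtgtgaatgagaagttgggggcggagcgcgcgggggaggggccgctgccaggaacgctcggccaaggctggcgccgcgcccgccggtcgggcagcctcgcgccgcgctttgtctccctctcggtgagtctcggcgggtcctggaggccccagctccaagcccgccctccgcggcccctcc
Csf2rb2: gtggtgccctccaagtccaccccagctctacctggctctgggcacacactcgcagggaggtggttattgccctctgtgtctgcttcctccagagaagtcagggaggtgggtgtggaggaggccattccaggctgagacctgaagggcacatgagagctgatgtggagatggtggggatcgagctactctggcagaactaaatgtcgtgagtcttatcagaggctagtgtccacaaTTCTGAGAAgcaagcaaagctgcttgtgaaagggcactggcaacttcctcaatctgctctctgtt
A match in these letters is a description of the sequence and shows no binding.

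Complement C4 was higher in CAC fat by value. C4b, which is cleaved to tag targets for complement (chr17:34728380-34743882, minus strand), was at 247, 879.8, 787, 609 and 394 TPM in CAC fat, against 64.2, 298, 149, 66.8 and 85.1 TPM in NCAC fat. NCAC replicate 2 alone lay above a CAC library, and the difference was 2.25 ± 0.47 (unadjusted p = 0.000565). The neighbouring copy C4a, annotated as a processed transcript, ranged over 6.32 to 25.8 TPM in CAC fat, against 0.558 to 10.8 TPM in NCAC fat (difference 1.92 ± 0.52), and reads of the 2 near-identical copies may have been split, so neither is certain alone. Of the other complement genes, C7 of the membrane attack complex differed by 1.09 ± 0.42 (unadjusted p = 0.0237). The list as a whole had 6 of 13 members positive and a median of -0.07, close to that over all genes. C3 differed by 0.42 and factor B (Cfb) by -0.17.

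Ccl8, a chemokine that attracts monocytes and other leukocytes (chr11:82115185-82116799, plus strand), was at 76.5, 75.4, 64.5, 88.4 and 61.6 TPM in CAC fat, against 18.2, 42.9, 44.0, 3.29 and 14.0 TPM in NCAC fat. The lowest CAC value exceeded the highest NCAC value, the CAC libraries lay close together, and the difference was 1.96 ± 0.55 (unadjusted p = 0.00443). In mock fat Ccl8 was at 3.47 to 13.0 TPM, and it was the single gene called in CAC against mock fat at 4 weeks (1 of 14576, 0.00686%), where it rose by 3.01 ± 0.29 (limma adjusted p = 0.00548). Across the 19 chemokines tested 7 were positive and the median was -0.10, close to all genes (36.8% positive, median -0.07). Cxcl12 was the other one with a positive difference at an unadjusted p under 0.05 (0.54), and Ccl24, Cxcl9, Cxcl14 and Cxcl16 had negative ones (-1.18, -1.24, -1.09 and -1.23). Over all genes, 1.04% had higher and 3.4% lower values at that p. Ccl24, an eosinophil attractant, was at 4.59, 3.20, 10.4, 1.46 and 6.28 TPM in CAC fat, against 6.41, 13.0, 15.0, 10.3 and 14.5 TPM in NCAC fat.

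Apod, Csf2rb2 and Rgs7 led without being in any list. Apod, the lipid-binding apolipoprotein D (chr16:31296192-31314808, minus strand), was at 18.0, 179, 27.7, 29.4 and 19.1 TPM in CAC fat, against 3.74, 3.44, 16.5, 1.80 and 8.95 TPM in NCAC fat. The arms did not overlap, but CAC replicate 2 was far above the rest of its arm, and the difference was 2.5030 ± 0.66 (unadjusted p = 0.00315), or 1.92 without that library. Csf2rb2, a beta chain of the interleukin-3 receptor in mice (chr15:78282507-78305721, minus strand), was at 12.3, 35.5, 22.7, 12.9 and 14.5 TPM in CAC fat, against 4.46, 8.31, 11.0, 8.30 and 8.32 TPM in NCAC fat. Its arms were separate by a narrow margin, with a difference of 1.11 ± 0.30 (unadjusted p = 0.00323). Rgs7, a regulator of G protein signalling (chr1:175059087-175492500, minus strand), was at 13.2, 19.3, 12.7, 15.2 and 13.0 TPM in CAC fat, against 9.20, 4.13, 8.24, 3.34 and 8.67 TPM in NCAC fat. CAC values of Rgs7 lay at or just above those of mock fat (10.5 to 14.9 TPM), and all NCAC values lay below them (difference 1.09 ± 0.26, unadjusted p = 0.0013).

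**Figure D2:**
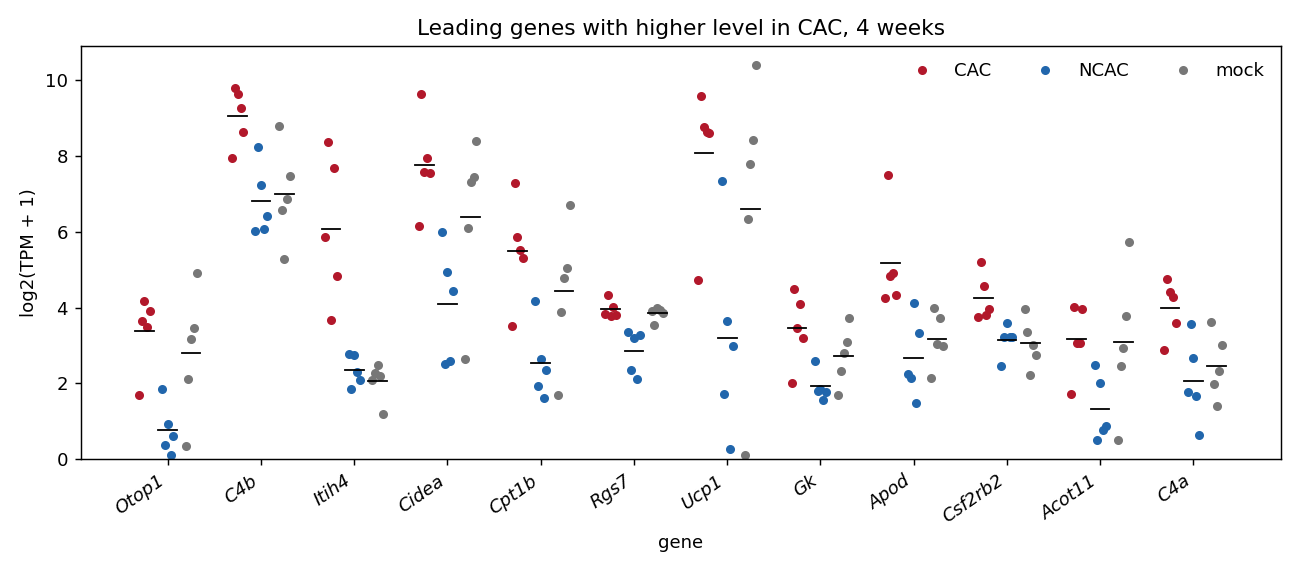
log2(TPM + 1) of the 12 leading genes with higher values in CAC fat at 4 weeks in each library, with CAC in red, NCAC in blue, mock in grey and a line at the mean of 5. CAC and NCAC points are separate for Itih4, Cidea, Rgs7, Apod and Csf2rb2, and mock points for Ucp1 run from 0.0776 to 1339.9 TPM before the log.

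The genes that led in the other direction were more mixed in function. Gadd45a, a stress and DNA damage response gene (chr6:67035096-67037457, minus strand), was at 9.98, 7.11, 13.6, 16.1 and 13.6 TPM in CAC fat, against 19.3, 37.9, 33.7, 38.0 and 17.8 TPM in NCAC fat. Every CAC library lay below every NCAC library, and the difference was -1.19 ± 0.27 (unadjusted p = 0.00101). Bbc3, which encodes the pro-apoptotic protein PUMA, was at 5.09, 2.32, 4.26, 3.99 and 9.87 TPM in CAC fat, against 14.2, 10.5, 11.2, 8.63 and 8.11 TPM in NCAC fat. CAC replicate 5 reached into the NCAC range of Bbc3, and the difference was -1.0029 ± 0.28 (unadjusted p = 0.00425). Ctps2, a CTP synthase, ranged over 3.71 to 18.6 TPM in CAC fat, against 19.3 to 42.2 TPM in NCAC fat without overlap (difference -1.24 ± 0.35). Dhx32, a DEAH-box helicase family member, ranged over 14.8 to 34.9 TPM in CAC fat, against 27.1 to 72.7 TPM in NCAC fat (difference -1.05 ± 0.28). For Cilp, a protein of cartilage and other matrix, the values were 0.888, 1.11, 5.81, 0.589 and 3.09 TPM in CAC fat, against 7.17, 18.1, 15.1, 4.07 and 9.43 TPM in NCAC fat. The CAC values of Cilp overlapped the NCAC arm in replicate 3 only, and the difference was -1.91 ± 0.46 (unadjusted p = 0.00151).

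Hormone and receptor genes of fat had lower values as well, of which Oxtr and Apln were among the 12 leading lower genes and Lep was not. Oxtr, the oxytocin receptor (chr6:112473683-112489943, minus strand), was at 27.4, 1.22, 42.5, 5.34 and 22.8 TPM in CAC fat, against 93.2, 340.2, 57.4, 105 and 34.8 TPM in NCAC fat. CAC replicate 2 and CAC replicate 4 were lowest, NCAC replicate 2 stood highest, and NCAC replicate 5 lay inside the CAC range (difference -2.81 ± 0.83, unadjusted p = 0.00645). Apln, which encodes the peptide hormone apelin, ranged over 0.627 to 5.24 TPM in CAC fat, against 4.99 to 12.2 TPM in NCAC fat (difference -1.25 ± 0.37, unadjusted p = 0.00631). Lep, leptin, whose level follows fat stores, was at 21.9, 13.1, 284, 43.6 and 61.6 TPM in CAC fat, against 113, 1670.2, 67.3, 385 and 208 TPM in NCAC fat. CAC replicate 3 exceeded 3 NCAC libraries, the other 4 CAC libraries lay below every NCAC library, and the difference was -2.40 ± 0.94 (unadjusted p = 0.028). Over the 10 genes of fat expansion and adipokines, 2 were positive and the median was -1.01. Alb, albumin, was present at low level, at 5.00, 0.870, 10.4, 4.76 and 7.63 TPM in CAC fat, against 12.4, 20.1, 9.48, 23.4 and 13.9 TPM in NCAC fat (difference -1.48 ± 0.44, unadjusted p = 0.00584). The Snhg11 locus, host of small nucleolar RNAs, ranged over 5.93 to 23.3 TPM in CAC fat, against 17.5 to 42.7 TPM in NCAC fat (difference -1.17 ± 0.34).

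**Figure D3:**
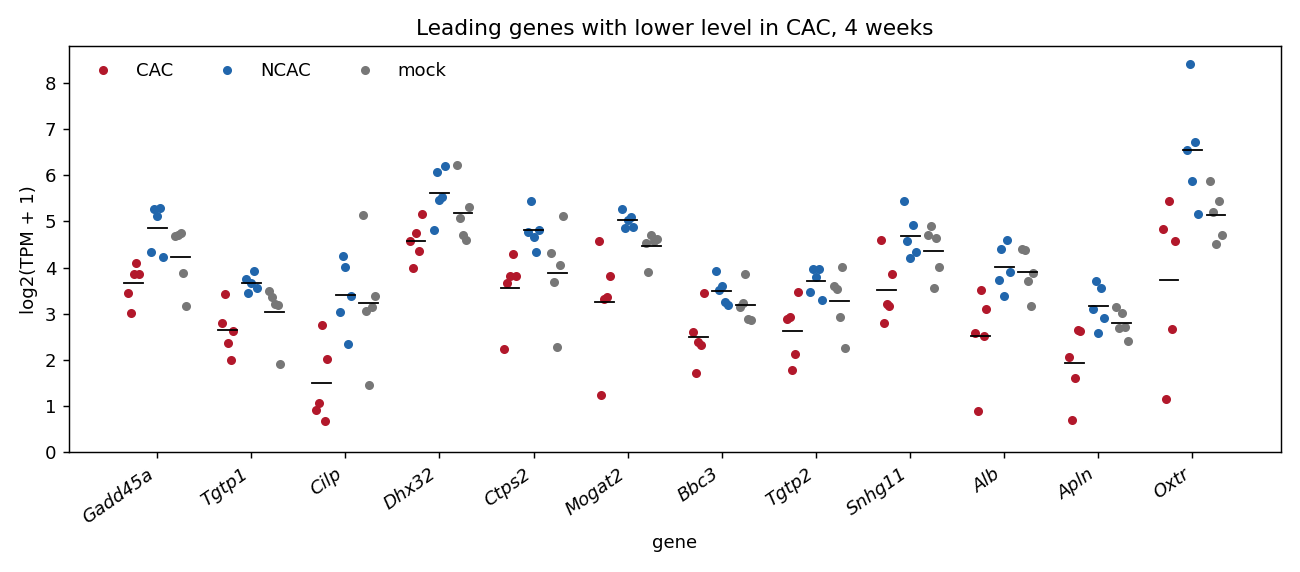
log2(TPM + 1) of the 12 leading genes with lower values in CAC fat at 4 weeks in each library, with CAC in red, NCAC in blue, mock in grey and a line at the mean of 5. CAC and NCAC points are separate for Gadd45a, Tgtp1, Ctps2 and Mogat2, and for Tgtp1 by the smallest margin, 9.72 TPM in the highest CAC library and 9.94 TPM in the lowest NCAC library.

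Interferon-induced genes had mostly negative differences. Tgtp1 and Tgtp2 encode near-identical interferon-inducible GTPases, so the split of reads between them is uncertain. Tgtp1 (chr11:48985327-48994172, minus strand) was at 5.98, 9.72, 4.14, 3.01 and 5.14 TPM in CAC fat, against 12.4, 9.94, 11.7, 14.1 and 10.8 TPM in NCAC fat. The arms were separate, with a difference of -1.03 ± 0.24 (unadjusted p = 0.00114). Tgtp2 overlapped between the arms, at 2.42 to 10.1 TPM in CAC fat, against 8.78 to 14.8 TPM in NCAC fat (difference -1.07 ± 0.30). In the interferon list, which holds neither, 2 of 16 members were positive and the median was -0.42. Negative differences at an unadjusted p under 0.05 stood for 5 members (3.4% over all genes). Those 5 were Gbp3 (-0.64), Oas1a (-1.0042), Rsad2 (-0.46), Ifit3 (-0.56) and Gbp2 (-0.44), which encode guanylate-binding and antiviral proteins. Gbp3 was at 17.2, 11.6, 10.8, 8.31 and 17.1 TPM in CAC fat, against 19.9, 17.1, 24.8, 19.3 and 19.99 TPM in NCAC fat. The regulator Irf1 differed by 0.08. With array weights the list's median was -0.09 and 6 members were positive, against 3 when mitochondrially encoded genes were left out and 2 when libraries were rescaled by median ratios.

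The element that interferon-activated complexes bind has as its core the bases GAAA, then any 2 bases, then GAAA again. On both strands it is in 3.44% of all promoters and in those of 9 of the 13 interferon list members with a promoter (69.2% of genes, against 3.99% of all genes with a promoter). Among the leading genes with a promoter in the table, 11 of 12 lower and 8 of 12 higher ones, Tgtp1 and Tgtp2 hold it and the others do not. The Tgtp1 promoter (chr11:48992197-48992496, minus strand) is shown because its gene had the non-overlapping arms. Capitals mark the core, which starts 77 bases before the RefSeq start, itself inside the longer GENCODE span given above, and the same window also holds 1 TTCNNNGAA palindrome in lower case that does not overlap it.
Tgtp1: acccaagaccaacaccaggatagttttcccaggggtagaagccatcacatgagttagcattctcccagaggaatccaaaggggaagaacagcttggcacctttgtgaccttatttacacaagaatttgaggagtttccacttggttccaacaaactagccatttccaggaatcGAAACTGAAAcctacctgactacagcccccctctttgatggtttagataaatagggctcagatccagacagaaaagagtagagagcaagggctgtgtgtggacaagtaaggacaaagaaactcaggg

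Genes of cholesterol and fatty acid synthesis also had mostly negative differences, and those of triglyceride synthesis were divided. Of 17 cholesterol synthesis genes 1 was positive (4 under each rescaling), and the median was -0.48. Dhcr7, the last enzyme of the pathway, was at 22.9, 8.03, 12.9, 12.4 and 24.8 TPM in CAC fat, against 31.1, 29.7, 19.3, 38.2 and 32.2 TPM in NCAC fat (difference -0.93 ± 0.29, unadjusted p = 0.00781). Idi1, which interconverts isoprenoid building blocks, ranged over 19.99 to 38.2 TPM in CAC fat, against 37.9 to 49.4 TPM in NCAC fat (difference -0.56 ± 0.18). Both enzymes overlapped between the arms. In fatty acid synthesis 1 of 15 genes was positive, with a median of -0.51. Fasn, fatty acid synthase, was at 6198, 757, 1187, 3312 and 3522 TPM in CAC fat, against 5159, 1047, 3984, 4688 and 3808 TPM in NCAC fat. Acly, which makes cytosolic acetyl-CoA from citrate, was at 2103, 171, 183, 1096 and 880.1 TPM in CAC fat, against 1936, 436, 1565, 1612 and 1305 TPM in NCAC fat. Low values of both stood in CAC replicates 2 and 3 and in NCAC replicate 2, and the differences were -0.51 ± 0.61 and -1.09 ± 0.71 (unadjusted p = 0.417 and 0.156).

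Pnpla3, a lipid droplet acylhydrolase that follows fatty acid synthesis, was at 137, 19.2, 74.7, 161 and 219 TPM in CAC fat, against 224, 391, 234, 451 and 398 TPM in NCAC fat. All CAC libraries lay below all NCAC libraries, with CAC replicate 2 lowest (difference -1.79 ± 0.56, unadjusted p = 0.0089). Scd2, a stearoyl-CoA desaturase, ranged over 40.8 to 276 TPM in CAC fat, against 239 to 376 TPM in NCAC fat (difference -1.35 ± 0.45), whereas its adipocyte paralog Scd1 ranged over 2360.4 to 16384 TPM in CAC fat, against 7073 to 15479.9 TPM in NCAC fat (difference -0.31 ± 0.48). In triglyceride synthesis 5 of 9 genes were positive, Gk (described above) the highest of them, and the median was 0.02. Mogat2, a monoacylglycerol acyltransferase (chr7:99219084-99238619, minus strand), was at 22.8, 1.35, 9.05, 9.26 and 13.2 TPM in CAC fat, against 37.6, 27.99, 31.7, 33.0 and 28.3 TPM in NCAC fat. Its arms were separate, with NCAC libraries close together and CAC replicate 2 lowest (difference -1.76 ± 0.49, unadjusted p = 0.0042). Dgat2, which adds the last acyl chain, differed by -0.71 (unadjusted p = 0.00658) and Dgat1 by 0.02.

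Genes of fat breakdown had differences near 0 for both main lipases. Pnpla2, adipose triglyceride lipase, ranged over 1571 to 2489 TPM in CAC fat, against 1308 to 2291 TPM in NCAC fat (difference 0.12 ± 0.20), and Lipe, hormone-sensitive lipase, over 521 to 839.6 TPM in CAC fat, against 624 to 867 TPM in NCAC fat (difference -0.08 ± 0.17, with the other sign under both rescalings, 0.03 and 0.01). Of 14 lipolysis genes 7 were positive, with a median of 0.00. Npr3, the clearance receptor that removes natriuretic peptides, was at 32.9, 17.2, 171, 12.5 and 43.6 TPM in CAC fat, against 53.4, 454, 60.4, 98.3 and 124 TPM in NCAC fat (difference -1.64 ± 0.73, unadjusted p = 0.0466), and the arms overlapped. Adipocyte identity genes had 4 of 16 positive and a median of -0.22. Adipoq was at 4048, 2649, 4266, 3465 and 4018 TPM in CAC fat, against 4796, 6978, 3593, 5706 and 6439 TPM in NCAC fat (difference -0.56 ± 0.22, unadjusted p = 0.0272).

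Genes of the extracellular matrix, which frames adipocytes, had negative differences. None of 25 was positive (2 were once mitochondrially encoded genes were left out of the total or libraries rescaled by median ratios, and 1 was with array weights). An unadjusted p under 0.05 was reached by 7 of them, against 3.4% of all genes with lower values. The median was -1.03, the lowest of the 41 lists. Col6a2, a chain of collagen VI, was at 27.4, 11.9, 114, 21.3 and 66.4 TPM in CAC fat, against 53.8, 228, 158, 67.9 and 84.0 TPM in NCAC fat. Col3a1, a fibrillar collagen, was at 144, 44.8, 243, 85.4 and 288 TPM in CAC fat, against 173, 567, 686, 185 and 352 TPM in NCAC fat. In both the arms overlapped, with CAC replicates 3 and 5 inside the NCAC range (differences -1.51 ± 0.60 and -1.36 ± 0.55, unadjusted p = 0.0288 and 0.0325). The list's mean level, in log2(TPM + 1), was 5.08, 4.95, 6.59, 4.93 and 5.90 in CAC fat, against 5.38, 7.03, 7.11, 5.69 and 6.25 in NCAC fat. Leaving out CAC replicate 2 or 4, or NCAC replicate 2 or 3, took the members at an unadjusted p under 0.05 to 0, and leaving out the 3 libraries high in urothelial markers gave 0 with a median of -0.61.

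**Figure D4:**
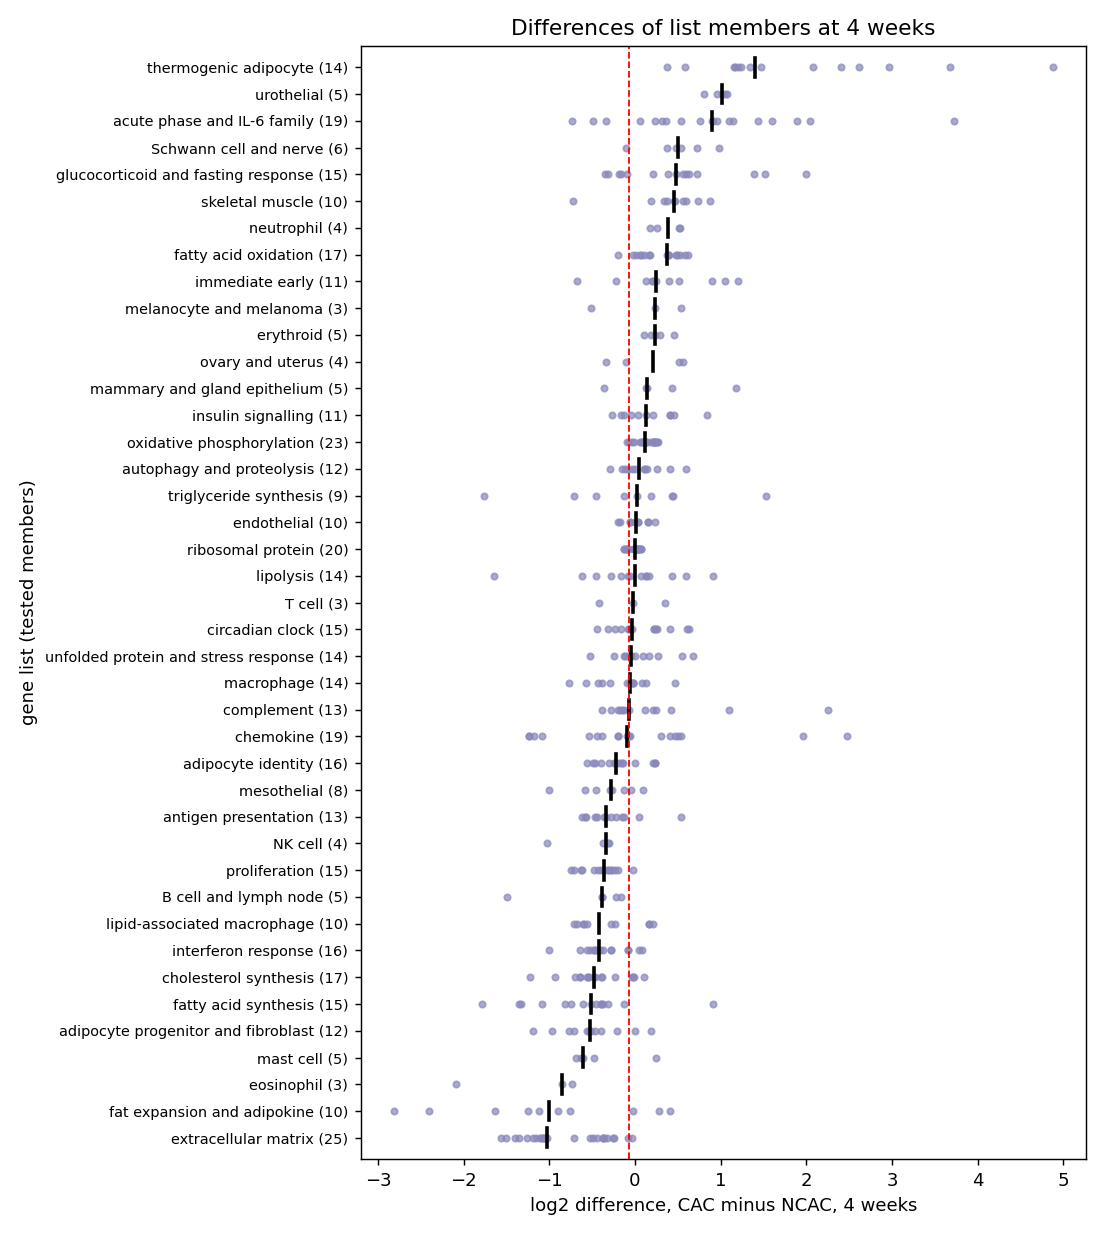
log2 differences, CAC minus NCAC at 4 weeks, of the tested members of each of 41 gene lists (dots) with the list median (black bar); the red dashed line is the median over all 14576 genes, -0.07, and the number in brackets is the tested members. Thermogenic genes (median 1.40) are at the top and extracellular matrix genes (median -1.03) at the bottom.

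Markers of the cell types that white fat can hold were compared in the same way. Progenitor and fibroblast markers had 1 of 12 positive and a median of -0.52, led by the actin-severing protein gelsolin (Gsn, difference -0.71 ± 0.29) and the microfibril protein Mfap5 (-0.97 ± 0.39). Endothelial markers had 5 of 10 positive (median 0.02) and macrophage markers 3 of 14 (median -0.06), with Adgre1 (F4/80) at 8.97 to 18.4 TPM in CAC fat, against 9.34 to 26.4 TPM in NCAC fat. Summed macrophage markers ran from 640.1 to 1561 TPM in CAC fat and from 571 to 1762 TPM in NCAC fat. Of 7 eosinophil genes 3 were tested, and these were lower in value, with 0 positive. Rnase2a, an eosinophil-associated ribonuclease, was at 3.80, 1.02, 10.3, 2.19 and 2.67 TPM in CAC fat, against 4.38, 52.2, 8.00, 30.4 and 20.7 TPM in NCAC fat (difference -2.08 ± 0.63, unadjusted p = 0.00738). Prg2, eosinophil major basic protein, ranged over 0 to 0.729 TPM in CAC fat, against 0.661 to 1.94 TPM in NCAC fat. The defining receptors Siglecf, Il5ra and Ccr3 were below the level tested, and Epx was listed at 0 in every CAC and NCAC library. NK cell genes had 0 of 4 positive. Summed NK cell markers, 5 genes in all, ran from 5.05 to 9.87 TPM in CAC fat and from 10.2 to 17.7 TPM in NCAC fat, without overlap, and mock fat held 7.15 to 15.1 TPM. Perforin (Prf1) was at most 0.487 TPM in CAC fat and at least 0.515 TPM in NCAC fat, without overlap but by a narrow margin at low level. Over all genes, 0.439% lay wholly below in CAC fat. The other NK cell markers overlapped, such as granzyme A (Gzma), at 0.871 to 4.11 TPM in CAC fat, against 2.63 to 8.89 TPM in NCAC fat.

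Other processes showed small or scattered differences. Of 15 glucocorticoid and fasting genes 10 were positive, with a median of 0.47. Pdk4, which blocks glucose oxidation, was at 38.0, 644, 155, 72.3 and 142 TPM in CAC fat, against 71.2, 48.7, 33.2, 35.6 and 47.1 TPM in NCAC fat (difference 1.52 ± 0.61, unadjusted p = 0.0311, or 0.94 without CAC replicate 2). Muscle also expresses Pdk4, and its part was not tested. Fkbp5, a glucocorticoid receptor chaperone, was at 15.7, 201, 25.5, 61.8 and 5.07 TPM in CAC fat, against 20, 49.4, 5.47, 55.7 and 6.26 TPM in NCAC fat (difference 0.72 ± 0.94, unadjusted p = 0.461). CAC replicate 2 held the highest value of both. Insr, the insulin receptor, ranged over 47.6 to 77.5 TPM in CAC fat, against 36.9 to 46.8 TPM in NCAC fat without overlap (difference 0.46 ± 0.14, unadjusted p = 0.00791), and it was the 1 insulin signalling gene of 11 at an unadjusted p under 0.05. Proliferation genes had 0 of 15 positive and a median of -0.37, all at low level, with ribonucleotide reductase Rrm2 at 0.543 to 1.41 TPM in CAC fat, against 1.23 to 3.65 TPM in NCAC fat. Ribosomal protein genes had a median of 0.01, circadian clock genes -0.03, unfolded protein response genes -0.05 and immediate early genes 0.24.

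The same comparison at the other weeks uses other samples and shares no library with that at 4 weeks. At 6 weeks 843 genes were called (5.78% of those tested), of which 720 rose (4.94%) and 123 fell (0.844%). At 8 weeks 77 were called (0.528%), of which 50 rose (0.343%) and 27 fell (0.185%), and at 2 weeks 0 were called, with 528 at an unadjusted p under 0.05. Summed urothelial markers reached 515 TPM in CAC fat at 6 weeks and 173 TPM at 8 weeks, against at most 1.39 and 1.66 TPM in NCAC fat. The urothelial list had a median difference of 4.15 at 6 weeks, with 4 of 5 genes called, and of 3.16 at 8 weeks, with 0 called. Skeletal muscle markers had a median of 2.30 at 6 weeks and 0.69 at 8 weeks. The part of these tissues in the later calls was not tested. Of the 152 genes with higher values at 4 weeks at an unadjusted p under 0.05, 65 rose at 6 weeks (42.8% of the 152, 9.03% of the 720) and 25 rose at 8 weeks (16.4% of the 152, 50% of the 50). Of the 496 with lower values, 46 fell at 6 weeks (9.27% of the 496, 37.4% of the 123) and 9 fell at 8 weeks (1.81% of the 496, 33.3% of the 27). Read from the later weeks, 589 of the 720 genes that rose at 6 weeks had a positive difference at 4 weeks (81.8%, against 36.8% of all genes), with a median of 0.20, and 47 of the 50 that rose at 8 weeks did (94%), with a median of 0.91. Of those that fell, 113 of 123 at 6 weeks (91.9%) and 26 of 27 at 8 weeks (96.3%) had a negative difference at 4 weeks, as did 9206 of all 14576 genes. Over all genes, the differences at 4 weeks had a Pearson r of 0.221 with those at 2 weeks, 0.586 with 6 weeks and 0.624 with 8 weeks, and genes of 1 library are not independent points.

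Among the 12 leading higher genes, C4b, Itih4, Apod, Csf2rb2 and C4a rose at both 6 and 8 weeks, and Cidea and Cpt1b rose at 8 weeks. Over all genes, 4.94% rose at 6 weeks and 0.343% at 8 weeks. Itih4 rose by 6.94 ± 0.28 at 6 weeks and by 6.54 ± 0.55 at 8 weeks (limma adjusted p = 7.33e-07 and 0.000306), after 1.48 at 2 weeks and 3.73 at 4 weeks. Apod rose by 4.38 and 4.07 (limma adjusted p = 2.11e-05 and 0.0409), C4b by 3.03 and 2.83 (limma adjusted p = 0.00372 and 0.0205) and Csf2rb2 by 2.31 and 1.83 (limma adjusted p = 0.00414 and 0.0234). In the acute phase list 13 of 19 rose at 6 weeks and 7 at 8 weeks (4.94% and 0.343% over all genes). Among them were Hp by 4.10 and 3.70 and Socs3 by 1.80 and 2.05. Ccl8 rose by 3.29 and 3.89 (limma adjusted p = 0.0303 and 0.0248). Of the 12 leading lower genes Alb and Oxtr fell at 6 weeks (-2.69 and -3.65) and Alb at 8 weeks (-2.49). Over all genes, 0.844% fell at 6 weeks and 0.185% at 8 weeks.

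**Figure D5:**
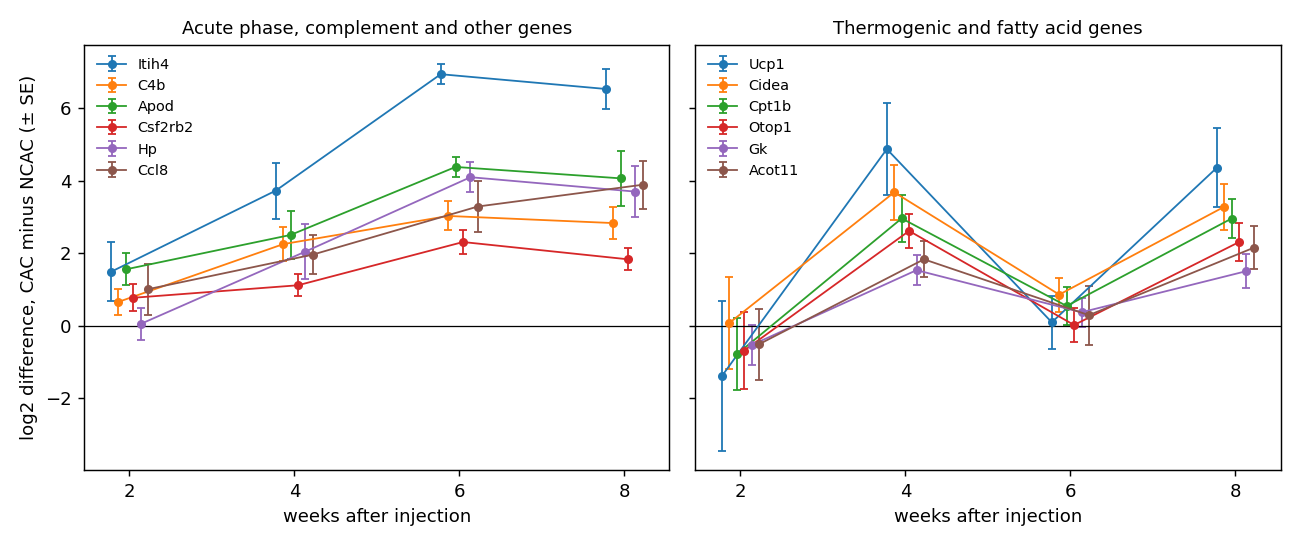
log2 difference, CAC minus NCAC, at 2, 4, 6 and 8 weeks after injection with its limma standard error, for 6 acute phase, complement and other genes (left) and 6 thermogenic and fatty acid genes (right); each week is a separate set of samples. On the left all values are higher at 6 than at 4 weeks, as for Itih4 (6.94 and 3.73), and on the right they are lowest after week 2 at 6 weeks, as for Ucp1 (0.09 at 6 weeks, against 4.87 at 4 weeks and 4.36 at 8 weeks).

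By value, the differences of thermogenic genes ran otherwise over the weeks. Ucp1 differed by -1.40 at 2 weeks, 4.87 at 4 weeks, 0.09 at 6 weeks and 4.36 at 8 weeks, and it was called at none of them. Cidea differed by 0.07, 3.68, 0.85 and 3.28 at 2, 4, 6 and 8 weeks and was called at 8 weeks (limma adjusted p = 0.0442). In the list, the median was -0.28 at 2 weeks, 1.40 at 4 weeks, 0.24 at 6 weeks and 2.13 at 8 weeks. The members called were 0 at 2, 4 and 6 weeks and 3 of 14 at 8 weeks, all higher (0.343% over all genes). The difference at 4 weeks minus that at 6 weeks was 4.79 ± 1.55 for Ucp1 (limma, unadjusted p = 0.00602, adjusted p = 0.397) and 2.60 ± 0.71 for Otop1 (unadjusted p = 0.00163, adjusted p = 0.333). For Itih4 it was -3.22 ± 0.88 (unadjusted p = 0.00166, adjusted p = 0.333). The cholesterol synthesis median was -0.48 at 4 weeks and 0.45 at 6 weeks. The difference between the weeks was called for 0 genes against 2, 6 or 8 weeks by limma, with 366, 1345 and 343 genes at an unadjusted p under 0.05, with the 4-week difference the higher one in 1.15% and the lower one in 1.37% of genes against 2 weeks, in 0.453% and 8.77% against 6 weeks and in 0.515% and 1.84% against 8 weeks. With array weights, 361 genes were called against 6 weeks, 345 of them lower at 4 weeks. The 1345 genes depended on scaling, with 574 once mitochondrially encoded genes were left out and 671 by median ratios. Those 2 rescalings gave 628 and 735 genes against 2 weeks, and 457 and 406 against 8 weeks. At 6 weeks mitochondrially encoded genes took 26.0 to 31.7% of TPM in CAC fat, against 29.4 to 42.4% in NCAC fat.

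Set beside mock fat, which enters both of the following comparisons, the 2 injected arms gave different values for these groups. The thermogenic median was 0.64 for CAC against mock and -1.05 for NCAC against mock. Of its 14 members 13 and 0 were positive, against 32.7% and 47.3% of all genes. At an unadjusted p under 0.05 by limma, 1 member was higher in CAC than in mock fat, as were 95 of all 14576 genes. At the same limit 6 members were lower in NCAC than in mock fat, as were 45 of all 14576 genes. The acute phase median was 0.82 for CAC against mock and 0.05 for NCAC against mock. For the extracellular matrix the median was -0.81 for CAC against mock and 0.09 for NCAC against mock. The interferon list had a median of -0.36 in CAC and 0.05 in NCAC fat, and cholesterol synthesis one of -0.16 in CAC and 0.30 in NCAC fat, each against mock. By limma 0 genes were called between NCAC and mock fat, with 115 at an unadjusted p under 0.05.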

How the data were processed

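RNA of white fat was sequenced from stranded TruSeq mRNA libraries on an Illumina NovaSeq, per the labels. The authors deposited 1 table of TPM for 47643 symbols in 62 libraries, placed on mm10 per the submitters' processing notes, with no aligner, counter or annotation version named in the labels. Each library sums to 1000000 TPM, so depth is unknown and no counting interval was computed. Arms were taken from the sample descriptions, since the treatment tag reads the same in every sample.

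Values were transformed to log2(TPM + 1), which understates folds of low genes. A gene entered the test if its TPM averaged 0.5 or more in all 62 libraries together, and the 10 libraries of the 2 arms were fitted alone with limma 3.58.1 in R 4.3.3 (trend and robust prior, two-sided), adjusted by Benjamini-Hochberg over all genes and called at an adjusted p under 0.05, and the fit was tested on simulated data. Interaction terms compared weeks. Without counts, no count model was run.

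The members, the 41 lists (498 genes, 497 in the table) and the rules were chosen with earlier results of these data known. Named genes were, per direction, the 12 with the lowest unadjusted p among those at 5 TPM or more in the higher group and with a log2 difference of at least 1 in size, the 2 members of each list with the lowest p, and 19 genes named always. A few genes these rules reach are not reported here. Further list members are given as examples chosen after their values were seen. Coordinates come from GENCODE M21 (GRCm38, also called mm10) by symbol. Alternatives are in the closing section.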

Additional observations from a re-analysis of the deposited data

Results flagged for a closer look

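Among the 220 groups of 5 libraries tested (110 named genes in CAC and in NCAC fat), 17 held a library whose gap to the nearest other exceeded Dixon's 95% critical share of the group's range on the log2 scale, and chance flags about 1 in 20 groups. CAC replicate 1 was far below the rest of its arm for Otop1 (2.23 TPM) and Ucp1 (25.5 TPM) and far above it for Saa3 (57.7 TPM). CAC replicate 2 stood above its arm for Apod (179 TPM), Ndufv1 (295 TPM), Cd3g (2.08 TPM) and Myh1 (176 TPM), and CAC replicate 4 below it for Hba-a1 (991 TPM). In NCAC fat, replicate 1 stood above the others for Gk (5.04 TPM) and replicate 5 for Prf1 (0.957 TPM). NCAC replicate 2 lay below the others for Fasn (1047 TPM) and Acly (436 TPM). NCAC replicate 3, which is high in urothelial markers, stood above the others for Krt20 (6.37 TPM), Krt5 (23.0 TPM), Cldn3 (6.78 TPM), Lcn2 (140.1 TPM) and Saa3 (146 TPM).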

How the results depend on the processing

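The count of called genes at 4 weeks was 0 in 17 of 20 alternatives. It was 1 with all 62 libraries in 1 fit (Itih4), 1 without the 3 libraries over 100 TPM in urothelial markers (Cdsn, an alternative chosen after seeing the data), and 0 to 1 when each library was left out in turn, the 1 being Otop1 without CAC replicate 1. Against 6 weeks the count of genes whose difference changed was 2 in the fit of all libraries and 361 with array weights, and against 8 weeks it was 4 with array weights, with 0 in every other alternative and in all those against 2 weeks; the cause was not tested. The replicate numbers did not pair the libraries (same-number correlations -0.054 to 0.391, and 1 of 5 numbers matched itself best), and with a replicate block 0 genes were called and 1104 had an unadjusted p under 0.05. Rescaling moved the median of all genes from -0.07 to 0.02 without mitochondrially encoded genes and to 0.00 by median ratios.

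Signs turned in 28 of the recomputed gene values, all of them uncalled, and the cause was not tested. With array weights the log2 differences were -0.0263 for Cry1, 0.0125 for Rps19, 0.0609 for Rpl13, 0.10 for Cldn3, -0.0865 for Pnpla2 and -0.52 for Fkbp5. Without mitochondrially encoded genes Rps19 gave 0.0091 and Lipe 0.0274, and by median ratios Lipe gave 0.0063. Without the libraries high in urothelial markers they were -0.0893 for Krt20, -0.0301 for Upk1a, -0.0127 for Krt5, -0.58 for Myh1, 0.18 for Scd1, -0.22 for Pck1 and 0.20 for Saa3. Leaving out each library in turn gave ranges of -0.20 to 0.0314 for Rps19, -0.29 to 0.0597 for Rpl13, -0.0121 to 1.31 for Krt20, -0.56 to 0.18 for Cldn3, -0.49 to 1.59 for Myh1, -2.18 to 0.13 for Acta1, -0.0125 to 0.71 for Hba-a1, -0.15 to 0.0242 for Lipe, -0.55 to 0.15 for Scd1 and -0.85 to 0.0742 for Saa3. With 5 libraries an arm and no read counts, small differences were not detectable. Large ones were not called in the main fit either, such as 4.87 for Ucp1 and 3.73 for Itih4.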
